A study of Mus musculus with 10 samples.

Results

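The 10 genes described here are the immediate early response genes Fos, Fosb, Jun, Junb, Jund, Atf3, Egr1, Ier2, Ier3 and Dusp1, taken by name. They were read from the 11 probe sets (groups of short array probes for a transcript) whose platform annotation names 1 of them, out of 22626 probe sets and 12393 genes on the array. Whole testes of 10 day old mice were profiled on 10 Affymetrix arrays. The 5 SCARKO pools came from mice whose Sertoli cells, the somatic nurse cells of the seminiferous tubule, have lost their response to androgen. The 5 control pools came from AMHCre mice, which carry a Cre transgene under the promoter of the anti-Müllerian hormone gene, active in Sertoli cells. Per the labels' protocols, each array held a pool of RNA from 1 testis of each of 3 littermates, and control and SCARKO pools were matched by litter, here pairs 1 to 5. Groups follow the titles. For pairs 1 to 4 the descriptions state the opposite genotype, and for pair 5 both labels name the same one, so the direction of the called members is also given for pair 5.

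Immediate early genes are transcribed within minutes of a stimulus without new protein synthesis, mainly through MAP kinases acting on the factors SRF and Elk and through cyclic AMP acting on CREB, and most of their messages decay fast. Fos and Jun family proteins pair through leucine zippers to form AP-1, Egr1 is a zinc finger factor, and Dusp1 is a phosphatase that switches MAP kinases off again. In the testis, Sertoli cells induce Fos in response to follicle-stimulating hormone and growth factors. Handling of a tissue before freezing is a known inducer of immediate early genes in many organs. In whole testis, a change in the number of cells that express a gene and a change in RNA per cell cannot be told apart.

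Jun and Ier3 were higher in SCARKO testes, and the other members gave no call. The deposited signals are probe set intensities on a linear scale, and differences are in log2 signal, SCARKO minus control, with the litter pair as a block. A gene was called at an adjusted p under 0.05 in limma, with Benjamini-Hochberg adjustment over all 13576 probe sets that passed a filter on dim signals. Of the 10 genes, 8 passed that filter and 2 of these were called, both higher and none lower. Across all 7973 genes tested, 2.17% were called higher and 3.52% lower. All 8 tested members had a positive difference, with a median of 0.11, against a median of 0.02 and 54.96% positive among all genes tested. The 2 members under the filter, Junb and Fosb, had negative differences in a fit without it (-0.10 and -0.30), from dim signals. Among the 8, 3 had an unadjusted p under 0.05, the third being Egr1, against 21.7% of all genes.

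**Figure D1:**
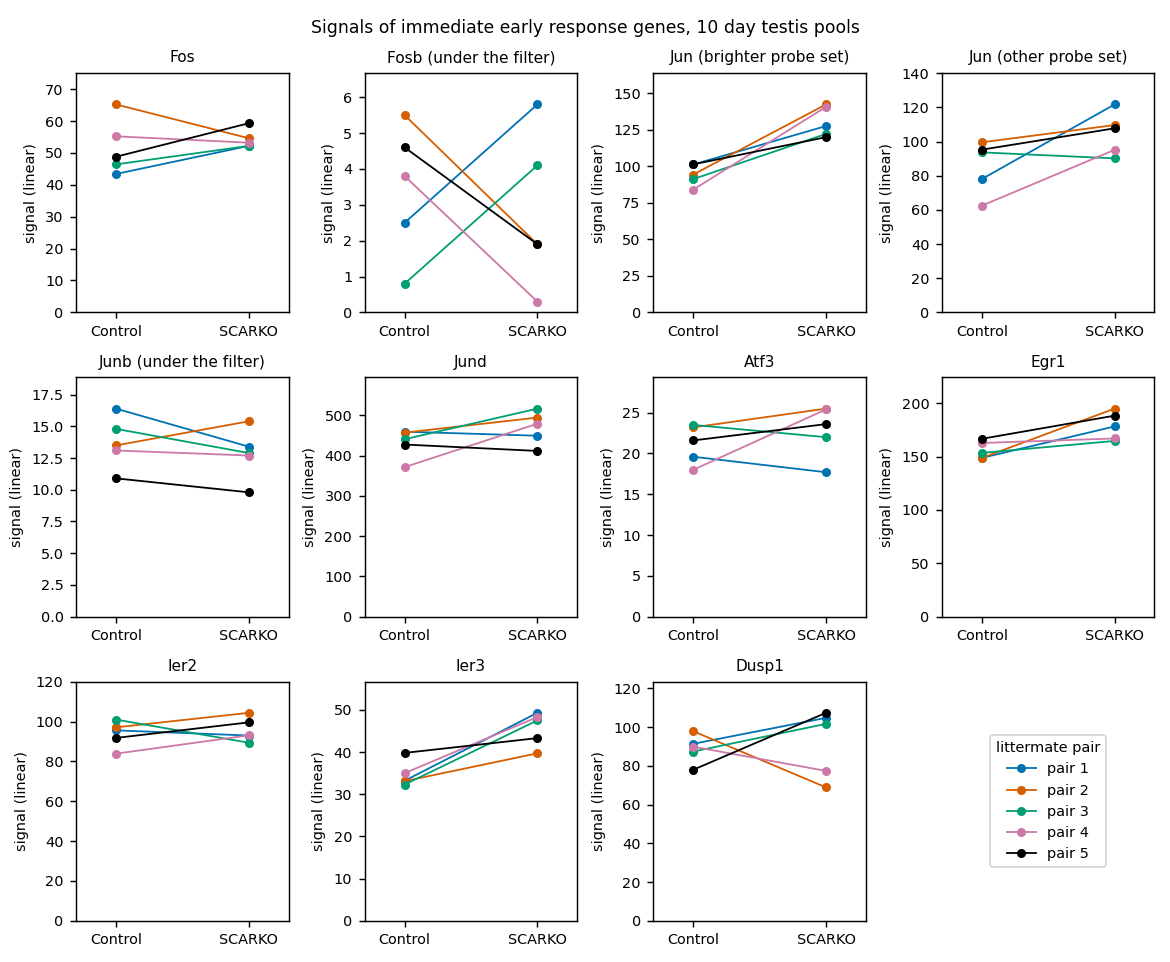
Signal on a linear scale for the 11 probe sets, with control on the left and SCARKO on the right of each panel and a line for each of the 5 littermate pairs. All 5 lines go up for the brighter Jun probe set, Egr1 and Ier3, while lines cross for Fos, Dusp1 and the dim Fosb.

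Regulatory elements named for this gene class can lie near the start site, so the promoters of both called genes are shown first. Those of Fos and Dusp1 are set beside them as uncalled members that hold elements of the cyclic AMP response. Promoters of 8 of the 10 members matched by symbol in the RefSeq table for GRCm38.p6; Egr1 and Ier2 had no entry. Each run gives the 250 bases before the start site, 5′ to 3′ on the strand of the gene, and capitals mark matches to the motifs searched. They lie at chr4:95052223-95052472, minus strand (Jun), chr17:35821463-35821712, plus strand (Ier3), chr12:85473640-85473889, plus strand (Fos) and chr17:26508473-26508722, minus strand (Dusp1).
Jun: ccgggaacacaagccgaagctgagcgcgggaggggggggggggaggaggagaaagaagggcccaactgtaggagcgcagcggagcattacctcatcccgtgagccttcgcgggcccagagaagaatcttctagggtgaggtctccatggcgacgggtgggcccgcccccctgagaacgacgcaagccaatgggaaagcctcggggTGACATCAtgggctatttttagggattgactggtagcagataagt
Ier3: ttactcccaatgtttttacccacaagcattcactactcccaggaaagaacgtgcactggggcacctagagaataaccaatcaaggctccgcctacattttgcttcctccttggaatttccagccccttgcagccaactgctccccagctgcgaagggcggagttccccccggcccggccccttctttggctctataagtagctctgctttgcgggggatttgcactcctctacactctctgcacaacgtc
Fos: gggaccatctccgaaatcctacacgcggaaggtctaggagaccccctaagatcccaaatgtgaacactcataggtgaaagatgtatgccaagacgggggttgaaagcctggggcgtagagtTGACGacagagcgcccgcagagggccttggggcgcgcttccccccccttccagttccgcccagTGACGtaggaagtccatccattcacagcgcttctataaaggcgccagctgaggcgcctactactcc
Dusp1: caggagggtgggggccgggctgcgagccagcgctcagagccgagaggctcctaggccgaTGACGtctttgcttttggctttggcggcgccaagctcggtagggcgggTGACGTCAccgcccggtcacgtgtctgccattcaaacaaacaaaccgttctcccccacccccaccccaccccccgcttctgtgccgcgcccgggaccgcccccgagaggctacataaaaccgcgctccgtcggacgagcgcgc

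The motifs were the SRF CArG box, the cyclic AMP response element TGACGTCA, the AP-1 site TGACTCA and the EGR site GCGNGGGCG, on both strands of the 300 base windows that run 50 bases past the start. Of the 8 members, Dusp1 held the cyclic AMP response element, 143 bases before its start, and Fosb held the EGR site, 50 bases before its start. These motifs occur in 1.79% and 5.56% of all 32817 promoters in the table. None of these 8 held the SRF box (1.63% of promoters) or the AP-1 site (5.20%) in this window. Sequence farther from the start was not searched, for Fos or any other member, and Egr1 and Ier2 were not searched at all. Whether a member holds either site outside the window therefore cannot be read from this search. The Jun variant of the AP-1 site, TGACATCA, searched after the promoters had been read, began 45 bases before the start of Jun and is found in 3.62% of promoters. The half-site TGACG, also added then and contained in the full element, was present in Atf3, Fosb, Junb, Fos (66 and 129 bases before the start) and Dusp1, and in 20.8% of promoters. The Ier3 promoter held none of these letters. The matches describe the sequence only.

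Among the Jun genes, which encode the AP-1 subunits that can pair with themselves or with Fos proteins, Jun was called and Jund was not; the difference between them was not tested. On its brighter probe set (gene ID 16476), Jun had signals of 101.2, 94.3, 91.2, 84.0 and 101.3 in control pools 1 to 5 and 127.5, 142.3, 122.1, 140.6 and 119.9 in SCARKO pools 1 to 5. Every SCARKO pool lay above every control pool, which held for 2.47% of all genes tested in that direction. The means were 94.4 ± 7.28 and 130.5 ± 10.4 (SD, n = 5), and Jun rose by 0.47 on the log2 scale (SE 0.08, 95% interval 0.30 to 0.64, adjusted p = 0.0063), a factor of 1.38. The paired differences ran from 0.24 in pair 5 to 0.74 in pair 4, so pair 5, on whose genotype the labels agree, had the same direction as the others. Adjusted p stayed between 0.012 and 0.027 when 1 pair was left out, and was 0.094 when dim probe sets were not filtered out.

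The other Jun probe set had signals of 78.1, 99.6, 93.7, 62.5 and 95.3 in control pools and 121.8, 109.7, 90.2, 95.2 and 107.8 in SCARKO pools. It was higher in 4 of 5 pairs, with overlapping groups and a difference of 0.30 (SE 0.10, adjusted p = 0.12), which did not pass. In pairs 1 and 4 it differed by 0.64 and 0.61, in pairs 2 and 5 by 0.14 and 0.18, and in pair 3 by -0.05. The mean of both probe sets gave a difference of 0.38 (adjusted p = 0.011).

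Jund, the Jun family member that many tissues express without a stimulus, had signals of 459.2, 456.9, 440.5, 371.2 and 427.3 in control pools and 449.2, 494.3, 516.5, 479.1 and 411.4 in SCARKO pools. The groups overlapped and 3 of 5 pairs were higher in SCARKO, with a difference of 0.12 (95% interval -0.01 to 0.26, adjusted p = 0.27). Control pool 4 was the lowest of the 10 for both Jund and the brighter Jun probe set. Junb, an AP-1 subunit that is a weaker activator than Jun, stayed under the filter, with signals of 9.8 to 16.4 over the 10 pools against the required mean of 19.3. Its group means were 13.7 ± 2.05 in control and 12.8 ± 2.01 in SCARKO (SD, n = 5), and it was lower in SCARKO in 4 of 5 pairs. Fitted with no filter, its difference was -0.10 (adjusted p = 0.76).

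The Fos genes encode the AP-1 subunits that need a Jun partner. Fos (gene ID 14281) had signals of 43.4, 65.2, 46.4, 55.2 and 48.8 in control pools and 52.2, 54.6, 52.2, 53.2 and 59.3 in SCARKO pools. Control pools were the more variable, with SDs of 8.66 in control and 2.96 in SCARKO, a contrast that was not tested, and the SCARKO values lay inside the control range. The difference was 0.08 (SE 0.10, 95% interval -0.13 to 0.29, adjusted p = 0.68), so a rise of the size seen in Jun lay outside the interval for Fos, although the difference between these genes was not itself tested. Fosb gave signals of 0.3 to 5.8 in the 10 pools, far under the filter. It was higher in SCARKO in 2 pairs and lower in 3, and no level can be read from values this dim.

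Atf3, a stress-induced factor of the ATF family that pairs with Jun proteins, was just above the filter. Its signals were 19.6, 23.2, 23.5, 18.0 and 21.6 in control pools and 17.7, 25.5, 22.0, 25.4 and 23.6 in SCARKO pools, with overlapping groups. The difference of 0.10 (95% interval -0.18 to 0.39, adjusted p = 0.70) did not pass. Pair 4 contributed most of it (0.50), and without pair 4 it was 0.0055.

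Egr1, which binds GC-rich promoters and is induced by MAP kinases and SRF, was higher in SCARKO in all 5 pairs without passing the adjusted threshold. Its signals were 148.8, 148.8, 153.5, 162.8 and 166.7 in control pools and 178.3, 195.0, 164.7, 167.0 and 188.4 in SCARKO pools. SCARKO pool 3, the lowest of its group, lay under control pool 5, and the other SCARKO pools lay above every control pool. The difference was 0.19 (SE 0.06, 95% interval 0.06 to 0.33, unadjusted p = 0.0099, adjusted p = 0.11), with adjusted p between 0.097 and 0.23 when 1 pair was left out.

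Ier3, an early response gene linked to cell survival and a target of NF-kB and MAP kinase signalling, was called. Its signals (gene ID 15937) were 33.2, 33.1, 32.3, 35.0 and 39.8 in control pools and 49.3, 39.7, 47.5, 48.3 and 43.3 in SCARKO pools. The highest control pool, number 5, passed the lowest SCARKO pool, number 2, by 0.1 signal units, and the other pools were separated. Means were 34.7 ± 3.03 and 45.6 ± 4.02 (SD, n = 5), and Ier3 rose by 0.40 on the log2 scale (SE 0.10, 95% interval 0.18 to 0.61, adjusted p = 0.044), a factor of 1.32, with the smallest of the 5 paired differences in pair 5 (0.12). This call was marginal. It ended without pair 1 (adjusted p = 0.13), 2 (0.054), 3 (0.16), 4 (0.12) or 5 (0.053), after quantile normalization (0.053) and without the filter (0.15), while the difference stayed between 0.35 and 0.46.

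Ier2, which encodes a small nuclear protein of the early response, had signals of 95.6, 97.1, 101.0, 83.9 and 91.8 in control pools and 93.0, 104.4, 89.4, 93.1 and 99.6 in SCARKO pools. The groups overlapped almost wholly, with a difference of 0.03 (95% interval -0.12 to 0.19, adjusted p = 0.84). Dusp1, the MAP kinase phosphatase, had signals of 91.4, 97.9, 87.4, 89.9 and 78.0 in control pools and 104.8, 68.9, 101.7, 77.4 and 107.4 in SCARKO pools. Its SCARKO pools fell on both sides of the control range, with numbers 1, 3 and 5 above every control pool and numbers 2 and 4 below every control pool. The difference was 0.03 (95% interval -0.23 to 0.29, adjusted p = 0.91), and paired differences ran from -0.51 in pair 2 to 0.46 in pair 5.

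**Figure D2:**
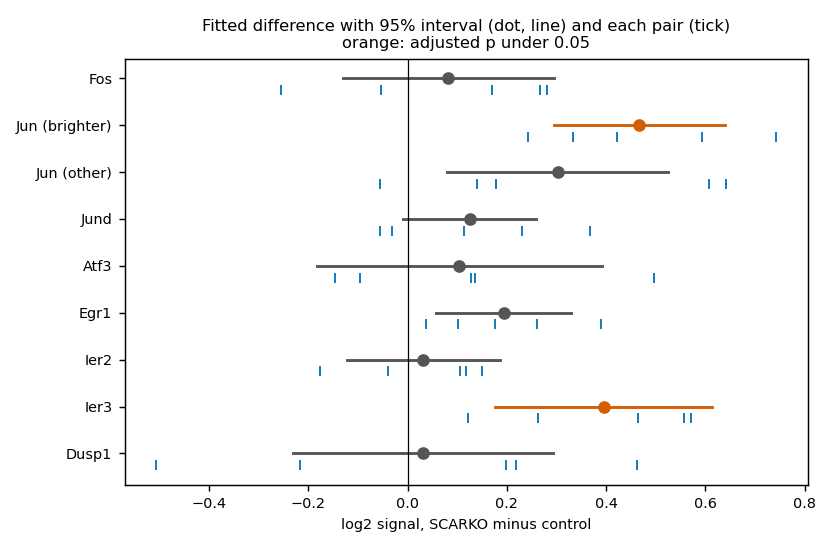
Difference in log2 signal, SCARKO minus control, for the 9 member probe sets that passed the filter, with the fitted value as a dot, its 95% interval as a line and each of the 5 pairs as a tick. Jun (0.47) and Ier3 (0.40) are the called genes, in orange, and the pairs of Dusp1 are spread from -0.51 to 0.46.

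Pools of a pair showed little likeness to each other in the members. If pools of a pair vary independently, the SD of paired differences is expected to be 2 times the SD of pair means, and it was 1.76 times for Atf3, 1.80 for Fos, 1.98 for Jund and 2.04 for Ier2, and higher for the rest, up to 3.81 for Jun. These ratios are descriptions over 5 pairs. For Jun the mean paired difference was 2.32 times the SD of the paired differences, for Ier3 it was 2.01 times, for Egr1 1.40 times and for Dusp1 0.08 times.

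No 2 members were shown to vary together from pool to pool once genotype was set aside. A test over 10 arrays cannot exclude that some do. Because Jun separates the genotypes, correlations were read from deviations from each group's mean over the 10 arrays, of which pair mates share a litter. Of 28 relations among the 8 tested members, 0 passed a permutation test (two-sided, 100000 resamples, Benjamini-Hochberg over the 28). By Pearson r, 13 were positive and 2 had an unadjusted p under 0.05. Those 2 were negative: Jun with Dusp1 (r = -0.71, permutation p = 0.023, adjusted 0.34; rho = -0.68, p = 0.033, adjusted 0.31) and Ier2 with Ier3 (r = -0.70, p = 0.025, adjusted 0.34; rho = -0.77, p = 0.012, adjusted 0.31). Without the 2 arrays farthest from the median of the first gene they were -0.79 and -0.78. By rank, the positive relation of Atf3 with Ier2 was also under 0.05 unadjusted (rho = 0.71, permutation p = 0.026, adjusted 0.31). Its Pearson r was 0.63 (permutation p = 0.050, adjusted 0.47), and 0.49 without the 2 farthest arrays. Jun and Ier3, the called genes, gave r = 0.00 within groups, and Fos and Egr1 gave r = 0.13.

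**Figure D3:**
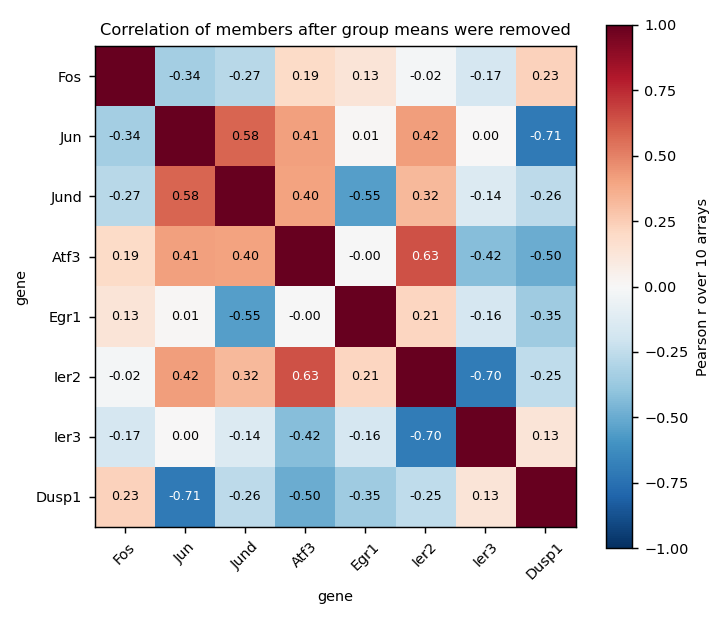
Pearson r over 10 arrays for each pair of the 8 tested members, after the mean of each group was subtracted from the log2 values, from -1 in blue to 1 in red. Positive and negative cells are mixed, with Jun against Dusp1 at -0.71 and Atf3 against Ier2 at 0.63.

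Since no relation between members passed, likeness to the members' mean profile describes little. Single members correlated with it between -0.30 (Dusp1) and 0.72 (Atf3). Over the 10 arrays, with group means removed, the genes most like that profile were Uqcc1 (r = 0.92), Zfp830 (0.90), Ubp1 (0.89), Eef1akmt1 (0.89), Acadl (0.89), Sox4 (0.88), Serbp1 (0.88), Dctn4 (0.87), 2810002D19Rik (0.87) and Vps26c (0.86). None of these 10 was called between genotypes, where 2.17% of all genes tested were called higher and 3.52% lower.

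Other early response genes moved in both directions. Of 43 listed, 42 were on the array and 31 passed the filter. Of these 3 rose, 3 fell and 25 were not called, with a median difference of 0.06 and 21 positive. Among all genes tested 2.17% were called higher, 3.52% were called lower and 54.96% were positive. Ccn1 and Ccn2, matricellular proteins induced by serum and SRF, rose by 0.55 (SE 0.09, adjusted p = 0.0064) and 0.31 (SE 0.04, adjusted p = 0.0030) on the log2 scale, each higher in 5 of 5 pairs. Ccn1 went from 34.4 ± 6.59 to 49.9 ± 5.91 (SD, n = 5) with no overlap between groups, and its other probe set rose by 0.58 (adjusted p = 0.020). Ccn2 went from 332 ± 41.8 to 413 ± 59.8 (SD, n = 5) with overlapping groups, and its call was lost without the litter block (adjusted p = 0.13).

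Zfp36l1, an RNA-binding protein that speeds the decay of messages with AU-rich elements, rose by 0.20 (adjusted p = 0.042) on 1 probe set and 0.29 (adjusted p = 0.043) on the other, and the first was not called when litter was ignored (adjusted p = 0.11). The genes that fell were Gadd45g, a stress-response gene that acts on p38 and JNK kinases (-0.54, adjusted p = 0.039), Sgk1, a kinase gene induced by serum and steroid hormones (-0.44, adjusted p = 0.039), and Pim1, a survival kinase gene (-0.34, adjusted p = 0.013). Gadd45g and Pim1 were lower in all 5 pairs, and every SCARKO pool lay below every control pool (the case for 2.78% of all genes tested), at 44.2 ± 4.34 against 30.7 ± 5.43 and 158.8 ± 15.6 against 125.3 ± 11.0 (control against SCARKO, SD, n = 5), and Sgk1 was lower in 4 of 5 pairs. The other probe set of Pim1 had a difference of -0.14 (adjusted p = 0.69). Without 1 pair, calls were lost for Zfp36l1 (pairs 1, 3, 4 and 5, adjusted p up to 0.13), Gadd45g (pairs 1, 3, 4 and 5, up to 0.12), Sgk1 (pairs 2 to 5, up to 0.15) and Pim1 (pair 5, 0.058), and none for Ccn1 or Ccn2.

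Relatives of the members in the Egr and Fos families gave no call. Egr2 and Egr4, sister factors of Egr1, had differences of 0.25 (adjusted p = 0.26) and 0.28 (adjusted p = 0.35), each higher in 4 of 5 pairs, and Egr3, Fosl1 and Fosl2 stayed under the filter. Nr4a1, an orphan nuclear receptor gene of the early response, was higher in all 5 pairs (difference 0.38, adjusted p = 0.065) and was called without pair 2. Klf4, a zinc finger factor that Sertoli cells express, was also higher in all 5 pairs (0.28, adjusted p = 0.065), with its other probe set at 0.02, and was called without pair 4.

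Genes that damp MAP kinase signalling showed small differences of mostly 1 sign. Of 13 listed, 9 passed the filter, 8 had a positive difference and the median was 0.15. Among all genes tested 54.96% were positive, the median was 0.02 and 2.17% were called higher. Dusp16, a phosphatase for JNK and p38, rose by 0.28 (SE 0.07, adjusted p = 0.043), from 120.5 ± 4.99 to 146.9 ± 19.0 (SD, n = 5), and was the 1 called member. Leaving out a pair ended that call whichever it was, with adjusted p from 0.060 to 0.17, and so did a fit that ignored litter (0.10). Spry1 (0.21, adjusted p = 0.11) and Spred2 (0.20, adjusted p = 0.17), inhibitors of the Ras pathway, came next.

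Of 27 genes for the kinases and factors upstream of the early response, 18 passed the filter, 1 fell and none rose, with a median of -0.02. Among all genes tested 3.52% were called lower and 2.17% higher. Mapk9, which encodes the JUN kinase JNK2, fell by 0.25 (SE 0.06, adjusted p = 0.034), and its 2 other probe sets fell by 0.33 (adjusted p = 0.015) and 0.46 (adjusted p = 0.0036). All 3 were lower in all 5 pairs, with no overlap between groups. On the brightest of them the call was lost without pair 1, 3, 4 or 5 (adjusted p = 0.078 to 0.14). Mapk14, the p38 alpha kinase gene, had a difference of -0.20 (adjusted p = 0.098) and was called without pair 2 (0.038), and Mrtfa, an SRF partner, had 0.22 (adjusted p = 0.18).

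**Figure D4:**
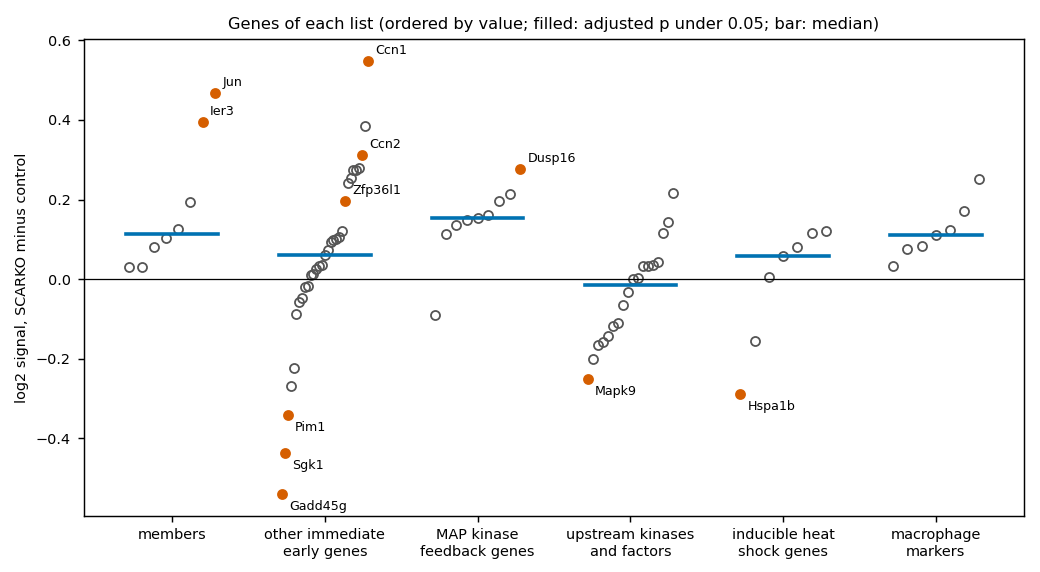
Difference in log2 signal, SCARKO minus control, for every gene that passed the filter in 6 lists, 1 dot per gene in order of value, filled where the adjusted p was under 0.05, with a bar at the list's median. Members and MAP kinase feedback genes lie mostly above 0, while the other early response genes hold 3 called genes on each side.

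Several measures that can move with early response genes were read beside Jun and Ier3. Of 7 inducible heat shock genes, 5 had a positive and 2 a negative difference (median 0.06), 1 was called lower and none higher. The shares over all genes tested were 54.96% positive, 3.52% called lower and 2.17% called higher. The called gene, Hspa1b, fell by 0.29 (adjusted p = 0.010), with -0.26 (adjusted p = 0.017) and -0.18 (adjusted p = 0.12) on its 2 other probe sets. Next came Hspa8 (0.12, adjusted p = 0.066) and Hsp90aa1 (0.08, adjusted p = 0.15). However, the other probe sets of Hspa8 that passed the filter had differences of -0.10 and 0.08, and its mean over probe sets gave 0.036 (adjusted p = 0.59). Hspa1a, a near-identical copy whose target may bind the same probes as Hspa1b, had -0.16 (adjusted p = 0.34). Of 8 macrophage markers, 7 passed the filter and all 7 had a positive difference (median 0.11, against 0.02 over all genes tested). Limma gave 0 calls among them, and 2 had an unadjusted p under 0.05, as did 21.7% of all genes tested. The summed signal of the 7 ranged from 382 to 525.8 in control and from 445 to 537 in SCARKO pools. Of 6 endothelial markers 5 passed, with a median of -0.05, 0 limma calls and 0 genes at an unadjusted p under 0.05, and summed signals of 137 to 175.5 and 139.6 to 167. The 3′ to 5′ signal ratio of the Gapdh control probe sets was 0.61 to 0.64 in control and 0.62 to 0.66 in SCARKO pools. The part of macrophage content and of RNA quality in the rise of Jun and Ier3 was not tested.

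The arrays carried the testis markers the labels call for. All 8 Sertoli, 6 germ cell and 5 myoid markers, and the 4 Leydig cell markers on the array, passed the filter. Of the 8 Sertoli markers 3 had a positive and 5 a negative difference, with a median of -0.05. Only 1 was called, lower, against 3.52% called lower among all genes tested. It was Cldn11, a tight junction gene, which fell by 0.68 (adjusted p = 0.00029). Its groups did not overlap, the case in that direction for 2.78% of all genes tested. Amh, the anti-Müllerian hormone gene, had a difference of -0.71 (adjusted p = 0.065) and was lower in all 5 pairs. The part of Cldn11 and Amh in the results for the members was not tested. The 2 erythroid and 3 epididymis or fat markers on the array did not pass. The brightest erythroid probe set, at a mean log2 of 4.24, lay just under the filter's 4.27. The mean signal after trimming 2% at each end was 100.03 on all 10 arrays, and precision is set by having 5 arrays in each group, since intensities carry no read depth.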

How the data were processed

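Whole-testis RNA pools of 3 mice, 5 control and 5 SCARKO, were hybridised to 1 Affymetrix array each. The authors deposited 1 linear signal intensity for each probe set. Per the submitters' processing notes, MAS5 was the tool for 8 arrays; none is named for pair 5, and neither version nor settings are given. The platform annotation supplied gene names, which were updated by gene ID to GRCm38.p6 symbols; 20380 probe sets listed 1 gene, 691 several and 1555 none. The targeted gene is not reported here.

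Values under 1 were set to 1 and log2 taken. Probe sets in the lowest 40% by mean log2 over the 10 arrays (under 4.27, a signal of 19.3) were dropped, leaving 13576. The model was limma (version 3.58.1, R 4.3.3) with group and pair as terms and eBayes with trend; tests were two-sided and p was adjusted by Benjamini-Hochberg. A gene was read from its brightest kept probe set naming 1 gene. The script was tested on simulated data. Pools were paired by litter per the labels' protocols, and pair mates' deviations from group means correlated at 0.27, 0.19, 0.19, 0.11 and 0.39 across probe sets for pairs 1 to 5. The highest correlation of either mate with a pool of the other group from another pair was -0.01, 0.08, 0.11, 0.11 and 0.01. Pair 4 was thus barely more alike than its closest other pool (0.1093 against 0.1091). Figures, permutation tests and motif counts used Python 3.11.15.

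The members and gene lists were chosen with earlier results of these data known. The genes named were the 10 members, the called genes and up to 3 of smallest p in each other list, and the 10 of highest likeness. Egr2, Egr3, Egr4, Fosl1 and Fosl2 were named as relatives, and Nr4a1, Klf4 and Hspa1a after their values were seen. No protein comparison was made. Alternatives were the block, the filter, the handling of low values, quantile normalization, array weights, groups from the descriptions and leaving out each pair.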

Additional observations from a re-analysis of the deposited data

How the results depend on the processing

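Of the 2 called members, both were called without the litter block (pair as a block left out; 2 called, Jun at adjusted p = 0.0040 and Ier3 at 0.044), with 16 added before log2 and with array weights. Jun alone was called (1 member) after quantile normalization, with the lowest 60% of probe sets left out, where Ier3 was not tested, and without any 1 pair (1 to 1). Limma called 0 members with no filter on dim probe sets, where 12393 genes entered with 3 members at an unadjusted p under 0.05, and 0 with groups from the descriptions (3). Across all probe sets, 704 were called, against 404 without the block, 38 without the filter, 304 to 743 without 1 pair and 0 with groups from the descriptions (611 at an unadjusted p under 0.05).

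Without the filter limma called 0 of the other early response genes (12 at an unadjusted p under 0.05), 0 feedback genes (5), 0 upstream genes (4) and 0 heat shock genes (3), and with groups from the descriptions 0 in each (1, 0, 0 and 2). Without the block 0 feedback genes were called (3) and 4 of the other early response genes, Ccn1, Gadd45g, Pim1 and Sgk1. Without 1 pair, counts were 2 to 6, 0 to 0, 0 to 2 and 1 to 1 in the same order of lists. Of the relations between members, 1 passed when the 2 arrays farthest from the median were left out, Jun with Ier3, both called between genotypes, on log2 values that still held the genotype difference. With group means removed that relation was r = 0.0034, and 0.39 without those arrays. With the other settings 0 passed.

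With groups from the descriptions, signs turned for Jun (-0.37, other probe set -0.23), Ier3 (-0.35), Jund (-0.15), Egr1 (-0.12), Atf3 (-0.053), Ccn1 (-0.37), Ccn2 (-0.15), Zfp36l1 (-0.13), Gadd45g (0.39), Pim1 (0.17), Sgk1 (0.11), Mapk9 (0.12), Mapk14 (0.058), Mrtfa (-0.11), Dusp16 (-0.13), Spry1 (-0.11), Spred2 (-0.087), Hspa1b (0.12), Hspa8 (-0.10) and Hsp90aa1 (-0.058). Fos (0.031), Ier2 (0.016) and Dusp1 (0.15) stayed positive. The difference of Dusp1 was -0.077 to 0.17 without 1 pair. Members with either of the Dusp1 and Fosb promoter motifs were 2 in both windows.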
